A study of Homo sapiens with 4 samples.

Results

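The sites described here are the peaks of 2 HNF1 peak lists that fall into 7 gene neighbourhoods of the hg19 genome, named after the 10 genes ID1, BCL2L1, ZBTB16, PARP11, CCND2, SH3RF2, TTLL6, PRPF6, TMEM17 and EHBP1. HNF1 binding had been profiled by chromatin immunoprecipitation and sequencing (ChIP-seq) in Caco2, an established human colorectal adenocarcinoma line, from 2 HNF1 libraries and 2 input libraries without antibody, all from cells in low glucose medium with serum. The neighbourhoods were chosen by peak scores and by the overlap of the same 2 lists. Each surrounds 1 of the 10 shared regions that ranked best by the poorer of their 2 score ranks, called the worse rank. A peak belongs to a neighbourhood when its midpoint lies in the window. The windows held 24 of 5060 peaks in replicate 1 and 17 of 4955 peaks in replicate 2, which joined into 28 of 7108 distinct regions. Because scores and overlap selected the windows, their values are described and not tested. The antibody label names HNF1, whereas the extraction text names FOXA2. The labels do not say whether the 2 libraries came from separate cultures.

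The protein named by the antibody label belongs to the homeodomain transcription factors. Such HNF1 proteins bind DNA as dimers, at a palindrome whose arms mirror each other, and are known for controlling genes of absorptive cells in the intestine. A ChIP-seq peak marks where the immunoprecipitated protein was enriched on DNA and does not show which gene, if any, is regulated from there. The 10 genes were named for their place beside a strong site. They serve unlike functions, from transcription control (ID1, ZBTB16) and cell cycle or survival (CCND2, BCL2L1) to protein modification (SH3RF2, PARP11, TTLL6), splicing (PRPF6), and membrane traffic and cilia (EHBP1, TMEM17).

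All peak positions are hg19, count from 1 and come from the deposited lists. Scores give the tags under a peak per 10000000 tags of the library, as written by the authors' peak caller. Replicate 1 held 11931439 tags and replicate 2 held 18469659, so 1 tag was worth 0.838 and 0.541 score units. Peaks were called against the input of the same replicate, and the peak size was 142 bp in the first list and 226 bp in the other. A difference in score between the lists therefore also carries these settings. Without an annotation of the hg19 build, the place of a site within a gene was not analysed here.

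The windows span 1.942 Mb, or 0.0666% of the 2914.7 Mb between the outermost peaks of the chromosomes. Of their 28 regions, 13 were in both lists (46.4%, Wilson 95% interval 29.5% to 64.2%), beside 40.9% of all 7108 regions. In replicate 1, 13 of 24 peaks were shared (54.2%, 35.1% to 72.1%), beside 57.5% of the whole list. In replicate 2 it was 13 of 17 (76.5%, 52.7% to 90.4%), beside 58.6%. These intervals cover counting error only. The 7 top ranked sites are shared by the way they were selected. Among the other regions of the windows, 6 were shared and 15 were in 1 list only, a lower share than the 40.9% over all regions. No interval was computed for this share. Without the 7 sites, 6 of 17 peaks of replicate 1 were shared (35.3%, 17.3% to 58.7%) and 6 of 10 of replicate 2 (60.0%, 31.3% to 83.2%). Both intervals are wide and include the share of the whole list. Peak density was 12.4 per Mb in replicate 1 and 8.75 per Mb in replicate 2, against 1.74 and 1.70 per Mb over the lists. Without the top ranked sites the windows were 5.05 and 3.03 times as dense as the lists. These folds depend on the window limits, since widening each window by 50 kb at each end still gave 28 regions. Regions lay near each other elsewhere too. Over all shared regions, the median was 1 further region within 100 kb, and 37.8% had 2 or more.

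**Figure D1:**
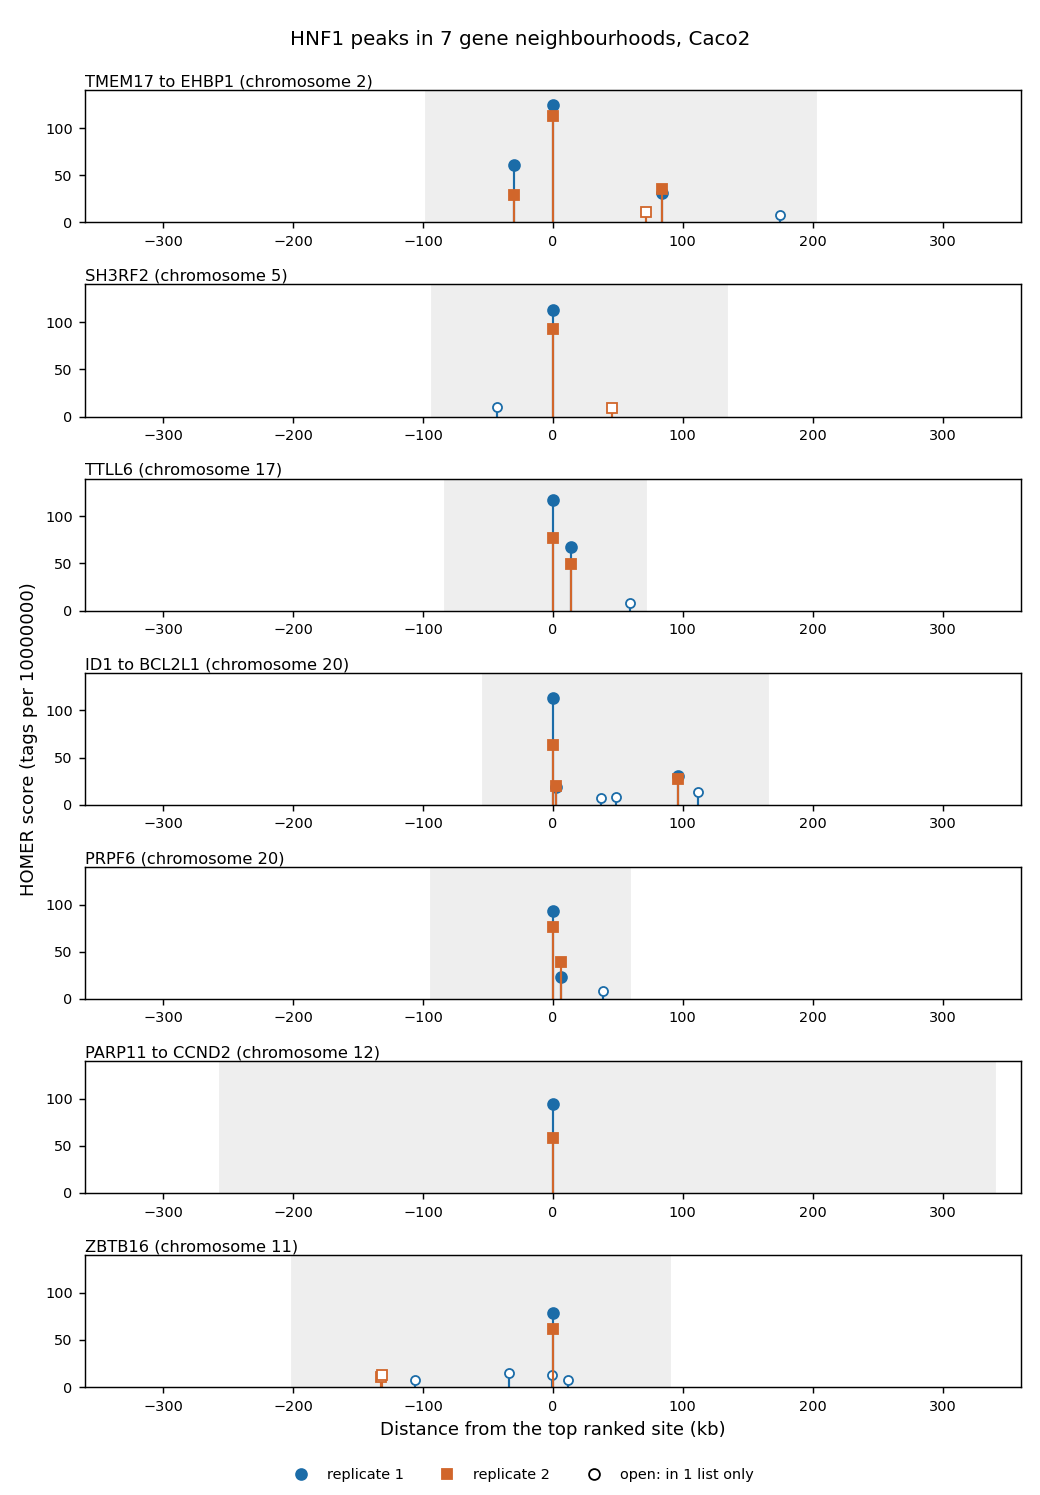
Peaks of the 7 windows, 1 panel each, by distance from the top ranked site in kb (horizontal) and HOMER score in tags per 10000000 tags (vertical). Circles are replicate 1, squares replicate 2, filled symbols shared peaks, open symbols peaks of 1 list, and grey the window. One strong pair stands at 0 in each panel, further shared pairs stand in 4 panels, and the PARP11 to CCND2 panel holds nothing else; the open ZBTB16 circle of score 13 lies partly behind the pair at 0.

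The neighbourhood of ID1 and BCL2L1, on chromosome 20 from 30.143 to 30.362 Mb, held the most peaks, 6 of replicate 1 and 3 of replicate 2. ID1 encodes a helix-loop-helix protein that lacks a DNA-binding region and blocks the partners it dimerises with, and BCL2L1 encodes BCL-XL, which protects cells from apoptosis. The top site at chr20:30196523-30196749 reached a score of 113 in replicate 1 and of 63 in replicate 2, ranks 7 and 12. It was the highest scored peak of chromosome 20 in the first list and the runner-up in the other. A second shared region lay only 2.042 kb away, at chr20:30198556-30198799, with far lower scores of 19 and 20. The third shared region, at chr20:30292469-30292695, stood 95.95 kb from the top site and had scores of 30 and 27. Both weaker regions had nearly equal scores in the 2 lists, whereas the top site was lower in replicate 2. The other 3 peaks were listed in replicate 1 alone, with scores of 7, 8 and 13. In the RefSeq order of genes (GRCh38.p14), MIR3193 and COX4I2, a subunit of cytochrome c oxidase, stand between ID1 and BCL2L1.

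ZBTB16 encodes PLZF, a zinc finger protein with a BTB domain that represses transcription. Its window, on chromosome 11 from 113.88 to 114.171 Mb, had 1 shared region among 7. This top site, at chr11:114080752-114080978, had scores of 78 in replicate 1 and 62 in replicate 2 and was the highest scored peak of the chromosome in both lists. The 6 other regions were each in 1 list, the highest share of unshared regions among the windows. Replicate 1 alone had 4, with scores of 8, 15, 13 and 8, and replicate 2 alone had 2, with scores of 11 and 13. The replicate 1 peak of score 13, at chr11:114080205-114080347, lay 600 bp from the replicate 1 peak of the top site. The 2 peaks of replicate 2 alone lay 727 bp from each other, at chr11:113948515-113948741 and chr11:113949242-113949468. Such close pairs were rare: 3.99% of replicate 1 peaks and 2.36% of replicate 2 peaks had another peak of their list within 1 kb.

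The PARP11 to CCND2 window was the longest, 597 kb on chromosome 12 from 3.868 to 4.465 Mb, and the emptiest. PARP11 encodes a mono-ADP-ribosyltransferase, and CCND2 encodes cyclin D2, a regulatory partner of the kinases that drive cells from G1 into S phase. Its single region, chr12:4124578-4124804, had scores of 94 and 58, ranks 16 and 20, and was the runner-up of chromosome 12 in each list. The midpoints of the peaks in the 2 lists were 4 bp apart. Its nearest neighbour in either list was 929.7 kb away and the nearest shared region 1376 kb away. In the RefSeq order, 9 genes stand between PARP11 and CCND2, of which 6 are long non-coding RNAs, 3 are pseudogenes and none codes for a protein.

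SH3RF2 encodes a RING finger ubiquitin ligase with SH3 domains. Its window, on chromosome 5 from 145.266 to 145.493 Mb, held a single shared region. That site, at chr5:145358925-145359151, had scores of 113 and 93, ranks 7 and 3. It was flanked by 1 weak peak of each list. The replicate 1 peak at chr5:145316034-145316176 had a score of 10 and lay 42.93 kb before it, and the replicate 2 peak at chr5:145404563-145404789 had a score of 9 and lay 45.64 kb after it. Neither had a counterpart in the other list, and the nearest other shared region was 868.8 kb from the top site.

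TTLL6 encodes a tubulin polyglutamylase, an enzyme that adds glutamate chains to the tubulin of cilia. Its window, on chromosome 17 from 46.79 to 46.945 Mb, held 2 shared regions with high scores in both lists. The top site at chr17:46873119-46873345 had a score of 117 in replicate 1 and of 77 in replicate 2, ranks 6 and 8. A second shared region followed 13.55 kb further on, at chr17:46886674-46886900, with scores of 67 and 49. This second site ranked 42 and 44 and was itself among the 50 highest peaks of both lists, the only further site of the windows to be so. In replicate 2 these were the 2 highest scored peaks of chromosome 17. One more peak was in replicate 1 alone, at a score of 8. TTLL6 stands between HOXB13 and CALCOCO2 in the RefSeq order of protein-coding genes.

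PRPF6 encodes a splicing factor of the U5 small nuclear ribonucleoprotein. Its window, on chromosome 20 from 62.562 to 62.715 Mb, held 2 shared regions 6.274 kb apart. The top site at chr20:62655670-62655896 had scores of 93 and 76 and ranks 17 and 9, and in replicate 2 it led chromosome 20. The second region, chr20:62661944-62662170, had a score of 23 in replicate 1 and of 39 in replicate 2. It ranked 861 in the first list and 97 in the other, and among the 13 shared regions it was the one most in favour of replicate 2 (log2 ratio of replicate 1 over replicate 2, -0.76). The remaining peak was in replicate 1 alone, at a score of 8.

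EHBP1 encodes a protein that links endocytic vesicles to the actin cytoskeleton, and TMEM17 encodes a membrane protein of the transition zone of cilia. Their window, on chromosome 2 from 62.7 to 63.0 Mb, held the shared region with the best worse rank of all, at chr2:62797219-62797490. Its scores were 125 and 113, ranks 4 and 2, and it led chromosome 2 in each list. A second shared region lay 29.74 kb before it, at chr2:62767505-62767731, with scores of 61 and 29. The third, at chr2:62881153-62881379, lay 83.91 kb after it with scores of 31 and 35. The order of these further sites thus differed between the replicates. In replicate 2, however, their Poisson 95% counting intervals overlapped, at 22.0 to 38.1 and 27.2 to 44.9. One peak of score 11 was in replicate 2 alone and 1 of score 8 in replicate 1 alone. No protein-coding gene stands between TMEM17 and EHBP1 in the RefSeq order, where 5 pseudogenes are listed.

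**Figure D2:**
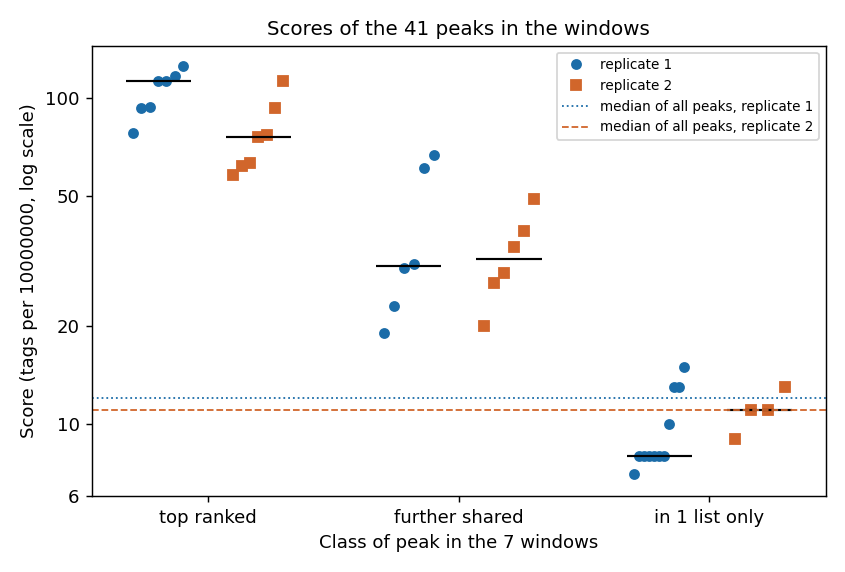
Scores of the 41 peaks of the windows in tags per 10000000 tags on a log scale, by class of peak, with circles for replicate 1, squares for replicate 2 and black bars for medians. Top ranked peaks span 78 to 125 and 58 to 113, further shared peaks 19 to 67 and 20 to 49, and peaks of 1 list 7 to 15 and 9 to 13, around the dotted and dashed medians of all peaks at 12 and 11.

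Shared and unshared peaks of the windows did not overlap in score. The 6 further shared regions had a median score of 30.5 in replicate 1 (19 to 67) and 32 in replicate 2 (20 to 49). The 11 peaks of replicate 1 alone had a median of 8 (7 to 15), and the 4 of replicate 2 alone a median of 11 (9 to 13). Over the whole lists the classes were less separate. Of all replicate 1 peaks with a score of at most 15, 43.2% were shared, as were 46.8% of such replicate 2 peaks. Of peaks with a score of at least 19, 90.4% and 94.4% were shared. This did not hold up to the top of replicate 1. Its highest score was 275, whereas no shared region scored above 125 there, at rank 4. The bounds of 15 and 19 were taken from the window peaks after their values were seen.

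The unshared peaks rested on about 8 to 18 tags in replicate 1 and 17 to 24 in replicate 2. Tag thresholds of 9 and 13 per peak, given in the file headers, correspond to scores of 7.54 and 7.04. The deposited scores go down to 6 in both lists, under these values, and the reason was not tested. Tags computed from the scores are therefore approximate and can fall below the threshold. The peak of score 7 in the ID1 to BCL2L1 window is such a case. Whether depth, peak size or input set these differences was not tested. Except for the ZBTB16 peak 589 bp from the top site of replicate 2, each unshared peak of replicate 1 lay between 11.79 and 90.65 kb from the nearest peak of replicate 2. The 4 unshared peaks of replicate 2 lay 12.54 to 45.62 kb from the nearest peak of replicate 1.

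Among the 13 shared regions, 10 had the higher score in replicate 1 and 3 in replicate 2, beside 56.0% of all 2905 shared regions with the higher score in replicate 1. The median log2 ratio of replicate 1 over replicate 2 was 0.29, beside a median of 0.17 over all shared regions. Ratios ran from -0.76 at the second PRPF6 region to 1.07 at the second region of the TMEM17 to EHBP1 window. All 7 top ranked sites were higher in replicate 1, with log2 ratios of 0.15 to 0.84. The 3 other regions among the 10 best ranked were also higher there, with scores of 101 and 81, 107 and 60, and 82 and 57. Among the 10 best ranked regions, this tilt was thus not limited to those in the windows. All 10 were picked by the same score ranks. Exact Poisson 95% intervals were set on the approximate tags. The top ID1 to BCL2L1 site had a score of 94.9 to 134 in replicate 1 and 51.9 to 75.3 in replicate 2. The intervals of the SH3RF2 site, 94.9 to 134 and 79.7 to 108, overlapped. Intervals stood apart at 4 of the 13 shared regions, and replicate 1 was higher at each. These were the top sites of ID1 to BCL2L1, TTLL6 and PARP11 to CCND2, and the second region of the TMEM17 to EHBP1 window. Over all shared regions, intervals stood apart at 277 (9.54%), and replicate 1 was the higher one at 233 of these. The median replicate 1 score was 78 for the 13 regions and 15 for all shared peaks. More tags give relatively narrower intervals, and regions of like score were not compared. Tags without molecular identifiers need not be independent molecules, and the intervals cover counting error only.

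**Figure D3:**
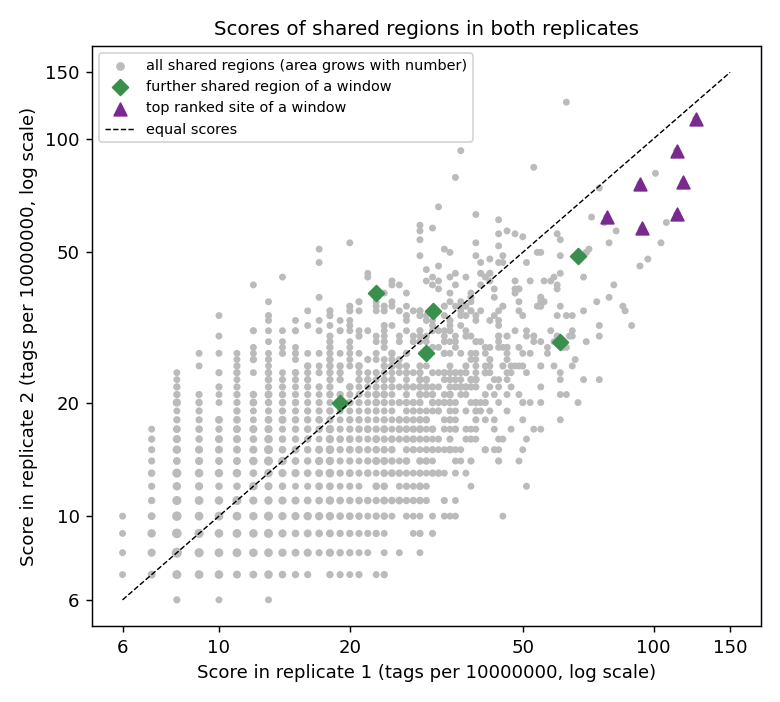
Score in replicate 1 (horizontal) against score in replicate 2 (vertical), both in tags per 10000000 tags on log scales, for all shared regions (grey, larger where several coincide), the 7 top ranked sites (triangles) and the 6 further shared regions of the windows (diamonds). The dashed line marks equal scores: all 7 triangles lie below it, and 3 of 6 diamonds lie above it.

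Midpoints of the shared pairs differed by 1 to 87 bp between the libraries, with a median of 11 bp beside 27 bp over all shared regions. The overlap that defines a shared region itself bounds this distance. The 13 regions also had higher scores, at a replicate 1 median of 78 against 15 for all shared peaks. Offsets at like score were not compared. The widest offset, 87 bp, was at the best ranked region of all, in the TMEM17 to EHBP1 window. There the peaks overlapped by 98 bp, or 43.2% of the replicate 2 peak. If 50% of both peaks had to overlap, this site would no longer count as shared.

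The 7 sites differed from each other in their number of shared neighbours. Within 100 kb, the TMEM17 to EHBP1 and the ID1 to BCL2L1 sites each had 2 further shared regions. The TTLL6 and PRPF6 sites had 1 each, and the SH3RF2, ZBTB16 and PARP11 to CCND2 sites none. With regions of 1 list counted too, the ZBTB16 site had 3 neighbours and the SH3RF2 site 2. Only the PARP11 to CCND2 site then had none. Over all 2905 shared regions, 60.1% had none within 100 kb, 25.1% had 1 and 9.64% had 2, with a median distance of 160 kb to the nearest. The 3 other regions among the 10 best ranked had 4, 3 and 4. They lie on chromosomes 10 and 2 and were left out of the windows because they belong to dense groups of sites, the 2 on chromosome 2 to the same group. Their higher numbers, and the lack of such numbers among the 7 window sites, follow from that choice and are no result. The closest pair of shared regions in the windows was that of ID1 to BCL2L1, at 2.042 kb. The PRPF6 pair followed at 6.274 kb.

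**Figure D4:**
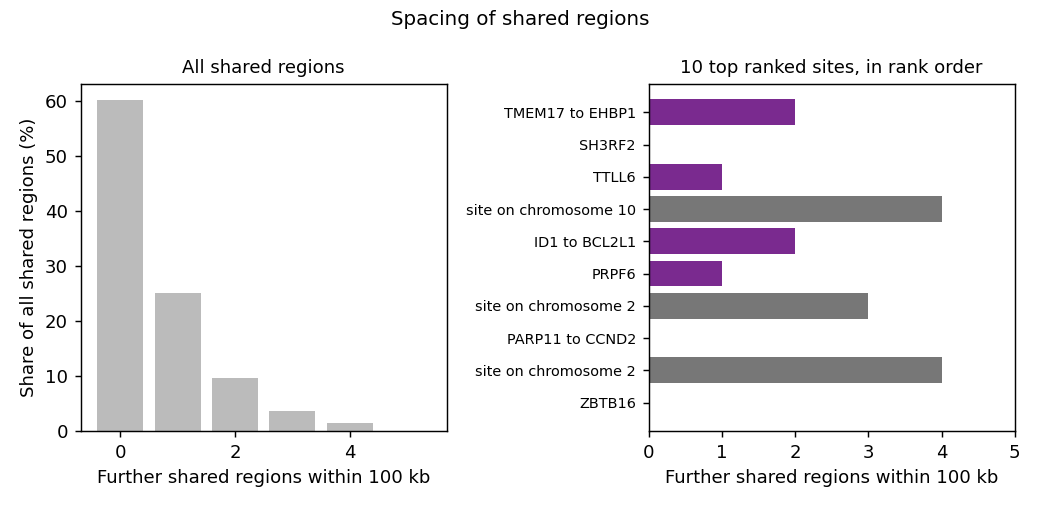
Left, the share of all 2905 shared regions (%) by their number of further shared regions within 100 kb. Right, the same number for the 10 best ranked sites in rank order, with the 7 window sites in purple and the 3 others in grey: the window sites have 0 to 2, and the others, set apart as members of dense groups, have 3 or 4.

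Selection of the windows followed a limit of rank and limits of position, after the 3 sites in dense groups had been set apart. The last of the 10 best ranked regions was the ZBTB16 site, whose worse rank was 26. The highest score of replicate 2, 125, belonged to a shared region with 63 in replicate 1, outside these 10. The next region, at chr1:209827333-209827559 with scores of 77 and 60, had a worse rank of 27 and was left out. At the edges, the nearest region outside any window was on chromosome 2 at chr2:62633678-62633904. It lay 66.21 kb before the TMEM17 to EHBP1 window, with scores of 14 and 10. The strongest of the nearest outside regions stood beside PRPF6, at chr20:62372274-62372500 with scores of 81 and 41, and was 189.6 kb from that window. The peak closest to an edge on the inner side was the replicate 1 peak of score 8 in the TTLL6 window, 12.61 kb from its end.

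Sequence under the peaks was not analysed here. RefSeq promoters (GRCh38.p14, 250 bases before to 50 after a start) were matched for 8 of the 10 genes, all but CCND2 and ZBTB16, as 12 promoters of 300 bases. They show which of the genes carry one arm of the HNF1 palindrome near a start, and cannot be set against the hg19 peak positions. The arm, GTTAAT on either strand, was in 1 of the 12 promoters, that of TTLL6, beside 6.88% of all 35116 promoters. It is shown because no other promoter of these genes held it, from chr17:48817200-48817229 (minus strand, GRCh38.p14) with the arm in capitals, beginning at base 13 of the transcript.

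TTLL6: agcgcctgggcgGTTAATtggattcgggag

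The whole palindrome, the arm followed by 1 base and its reverse complement, was in none of the 12 promoters and in 2 of all 35116. The words TGTTTAC for FOXA, TTTATGG for CDX2, AGATAA for GATA and CAAAGTCCA for HNF4, on both strands, were in none of the 12 either, beside 3.42%, 2.54%, 10.3% and 0.384% of all promoters. A match or its absence describes these letters in this stretch and says nothing about binding. The words were searched separately, and the arm is part of the whole palindrome.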

How the data were processed

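ChIP-seq libraries of Caco2 cells comprised 2 HNF1 immunoprecipitations, each with 1 peak list, and 2 inputs. Per the submitters' processing notes, Bowtie 1.0.0, HOMER 1.2 and hg19 were used. Per the file headers, HOMER findPeaks called each library separately against an input (false discovery rate 0.001, 4-fold over input and over the local 10000 bp, Poisson limits of 0.0001), with fragment lengths of 76 and 226 bp. The deposited score is the authors' tag count per peak, scaled and rounded; it ranked peaks within a list. Members and lists were chosen with earlier results of these data known. All 10 genes were named, with each site that was top ranked, shared or in the highest score decile, and further single peaks singled out after their values were seen. Peaks overlapping by at least 1 bp were shared. For counting intervals only, tags were approximated as score times total tags over 10000000. No test was made. Alternatives changed overlap, peak width, score threshold and window limits. The overlap and window counting was tested on simulated data. Gene order and promoters came from RefSeq, where all 10 symbols matched in the gene table. Scripts ran in Python 3.11.15 with pandas 2.3.3 for tables, scipy 1.17.1 and numpy 2.4.6 for intervals, and matplotlib 3.10.9 for plots.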

Additional observations from a re-analysis of the deposited data

How the results depend on the processing

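Of 26 alternative values for the windows, 20 moved by less than the spread between the replicates or, for counts, by less than 1.5 times. The number of shared peaks was 12 under a 50% reciprocal overlap and 13 under the other settings. The stricter overlap drops the best ranked site, in the TMEM17 to EHBP1 window. Using only the better scored 50% of each list, 81.2% of replicate 1 window peaks were shared instead of 54.2%, since this drops weak peaks by construction. Peak density fell from 7.12 to 5.23 times the list in replicate 1 with windows widened by 50 kb at each end. The widened windows still held 28 regions, so this fall reflects their length. Without the top ranked sites, density fell from 7.12 to 5.05 in replicate 1 and from 5.15 to 3.03 in replicate 2. The median score of the further peaks, 13 and 23.5, rose to 21 and 39 when the top ranked sites were included. The planned motif alternative on peak sequence was not run, since no hg19 sequence was used. No paired analysis was possible because the input libraries have no list of their own here and nothing was tested. Leaving out a replicate was not possible, since sharing needs both lists. With 1 list per library, scores carry no standard deviation, and depth effects were not tested.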
